A study of Mus musculus with 10 samples.

Results

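A set of 9 genes of neutral lipid storage was followed in cultured peritoneal macrophages of CTR mice and of Mac-GsαKO mice, a line named for loss of Gsα. The genes are Plin2 and Plin3, which encode coat proteins of the lipid droplet, Dgat1 and Dgat2, which encode the enzymes of the last step of triglyceride synthesis, the lipase genes Pnpla2 and Mgll, the lipase co-activator gene Abhd5, and the lipase inhibitor genes G0s2 and Hilpda. They were taken by name from a list of lipid droplet, triglyceride synthesis and lipolysis genes, and all 9 of the 9 were found among the 53465 genes of the deposited count table. 7 of the 9 had enough counts to be tested, among 13203 genes tested in all, and the 2 that were not are Dgat2 and G0s2. The study, by its title, asked about Gsα in the formation of macrophage foam cells, the lipid-laden cells of the atherosclerotic artery wall.

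RNA was sequenced from peritoneal macrophages of CTR mice (5 libraries) and of Mac-GsαKO mice (5 libraries, KO in what follows), all from mice aged 6 to 8 weeks. Both groups were kept in serum-supplemented medium with antibiotics and received no further treatment, so no lipid loading is described. By its name the Mac-GsαKO line lacks Gsα in macrophages. Which promoter drove the deletion, and which alleles the CTR mice carried, the sources used here do not give. Nor is it stated whether every library stands for its own mouse; p-values therefore reflect library-to-library spread, which may be technical.

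Cells store surplus fatty acids as triglyceride in lipid droplets, which bud from the endoplasmic reticulum and are covered by perilipins. Triglyceride is broken down stepwise: adipose triglyceride lipase (Pnpla2) takes off the first fatty acid and needs ABHD5 for full activity, G0S2 and HILPDA inhibit it, and monoacylglycerol lipase (Mgll) acts on the last intermediate. Macrophages express Plin2 as their main perilipin, and foam cells of the artery wall are known for it. Gsα, the product of Gnas, couples receptors to adenylyl cyclase and thereby to cAMP, which in adipocytes is the classical signal for lipolysis.

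Plin2 is the member whose transcript passed the test, and the stretch before its start in RefSeq, chr4:86670065-86670309 on the minus strand of GRCm38.p6, is shown for that reason. It leaves out the 5 bases next to the start and is in lower case throughout because none of the motifs searched below lies in the window.
Plin2: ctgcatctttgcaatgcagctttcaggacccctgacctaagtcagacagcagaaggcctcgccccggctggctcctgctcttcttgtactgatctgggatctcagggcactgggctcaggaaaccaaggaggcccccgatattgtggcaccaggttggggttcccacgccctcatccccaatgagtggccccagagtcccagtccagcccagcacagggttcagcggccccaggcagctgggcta

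The 250 bases before each start were searched on both strands for the letters ACGTG, the core of sites bound by hypoxia-inducible factors (HIF), TGACG, the core of the cAMP response element, and TGACGTCA, the full palindrome of that element, which contains TGACG. RefSeq held windows for 7 of the 9 members, with 9 windows in all, and Dgat1 and Dgat2 were not matched. Among all 32851 windows of the table, ACGTG was found in 16.6%, TGACG in 17.8% and TGACGTCA in 1.55%. ACGTG was found for 2 members, Mgll and Hilpda. TGACG was found for 3 members, Abhd5, G0s2 and Hilpda, and TGACGTCA for 0. The shares above are per window, whereas Mgll and Hilpda had 2 windows each, so the counts of members are not directly comparable with them. The stretches below, of 30 bases each and from GRCm38.p6, show 1 match per member and motif with the letters found in capitals, on either strand. They are chr6:88724355-88724384 (plus strand) for Mgll, chr9:122351475-122351504 (plus strand) for Abhd5, chr1:193273409-193273438 (minus strand) for G0s2, and chr6:29272367-29272396 and chr6:29272570-29272599 (both plus strand) for Hilpda.
Mgll, ACGTG on both strands: cgggggccgggcaCACGTGgggccccggcg
Abhd5, TGACG: cacacgggcggaaTGACGcattaatggtca
G0s2, TGACG on the opposite strand: acacCGTCAcctggtggtctcctcttcagc
Hilpda, TGACG on the opposite strand: cacactgcccgggCGTCActtcaagtactg
Hilpda, ACGTG before its other start: ggatggccagcggACGTGccccagggcgag

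The Mgll match began 44 bases before the start and the Abhd5 match 128 bases before it. For Hilpda, the TGACG match began 108 bases before one start, and the ACGTG match began 43 bases before the other, inside an exon of the first transcript. The G0s2 match lay at the far edge of the window, 246 bases from the start. These are matches of letters and not measured binding sites.

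CTR libraries held between 15664243 and 18028974 counts, and KO libraries between 16877249 and 19235777. Gnas transcripts, which check the labels, stood at 435 ± 62.4 CPM (read counts relative to the TMM-scaled size of the library; mean ± SD, n = 5) in CTR and at 40.2 ± 2.62 (n = 5) in KO, with no overlap. Macrophage markers were abundant in every library, with 7 of 7 tested, and their summed CPM ranged from 29961 to 38287 in CTR and from 14530 to 16074 in KO. Lyz2, which makes up most of that sum, was lower in KO by a log2 fold change of -1.52 (SE 0.10, edgeR quasi-likelihood test, adjusted p = 2.03e-05), whereas Csf1r (0.46, adjusted p = 0.0235) and Itgam (0.79, adjusted p = 0.0494) were higher and the other 4 did not pass. Of the 7 adipocyte markers, Adipoq, Lep and Cfd were at 0 counts in all libraries and 1, Lipe, was tested, and their sum ranged from 14.2 to 21.6 CPM in CTR and from 16.7 to 18.7 in KO. Summed neutrophil markers ranged from 18.8 to 27.4 CPM in CTR and from 12.3 to 25.0 in KO, with Ly6g at 0 in all libraries and S100a8 lower in KO (-0.56, adjusted p = 0.0443, edgeR), the 1 marker of these other cell types that passed. Fibroblast markers summed to 30.1 to 137 CPM in CTR and 48.6 to 65.3 in KO, and mesothelial markers to 5.90 to 34.6 and 12.9 to 19.9, and both sums were highest in CTR 5, where Col1a2 stood at 56.3 CPM. Sums were at most 8.69 CPM for B cells, 1.11 for T and NK cells and 19.2 for mast cells. CTR 4 stood apart from the other CTR libraries, with a TMM factor of 0.908, where the other libraries had 0.994 or more, and 17894 genes detected, where the others had 18479 or more. The mitochondrial share of counts was 1.39% to 1.97% in CTR and 1.20% to 1.36% in KO. The part of these differences in the results on the members was not tested. In bulk libraries such as these, fewer cells of a type and less RNA per cell cannot be told apart.

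Among the 7 tested members, Plin2 fell in KO and none passed in the other direction. At an adjusted p under 0.05 (edgeR quasi-likelihood test with Benjamini-Hochberg adjustment over 13203 genes), 0 members were higher, beside 1.83% of all genes tested, and 1 was lower, beside 2.11% of all genes. By an unadjusted p under 0.05, 4 of the 7 members differed, Mgll in the higher direction and Plin2, Dgat1 and Abhd5 in the lower, beside 21.9% of all genes in either direction (10.0% higher and 11.9% lower). The median log2 fold change of the 7 members was -0.15, beside -0.01 over all genes tested. In 0 of the 7 did the CPM of the genotypes not overlap at all, beside 7.80% of all genes.

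**Figure D1:**
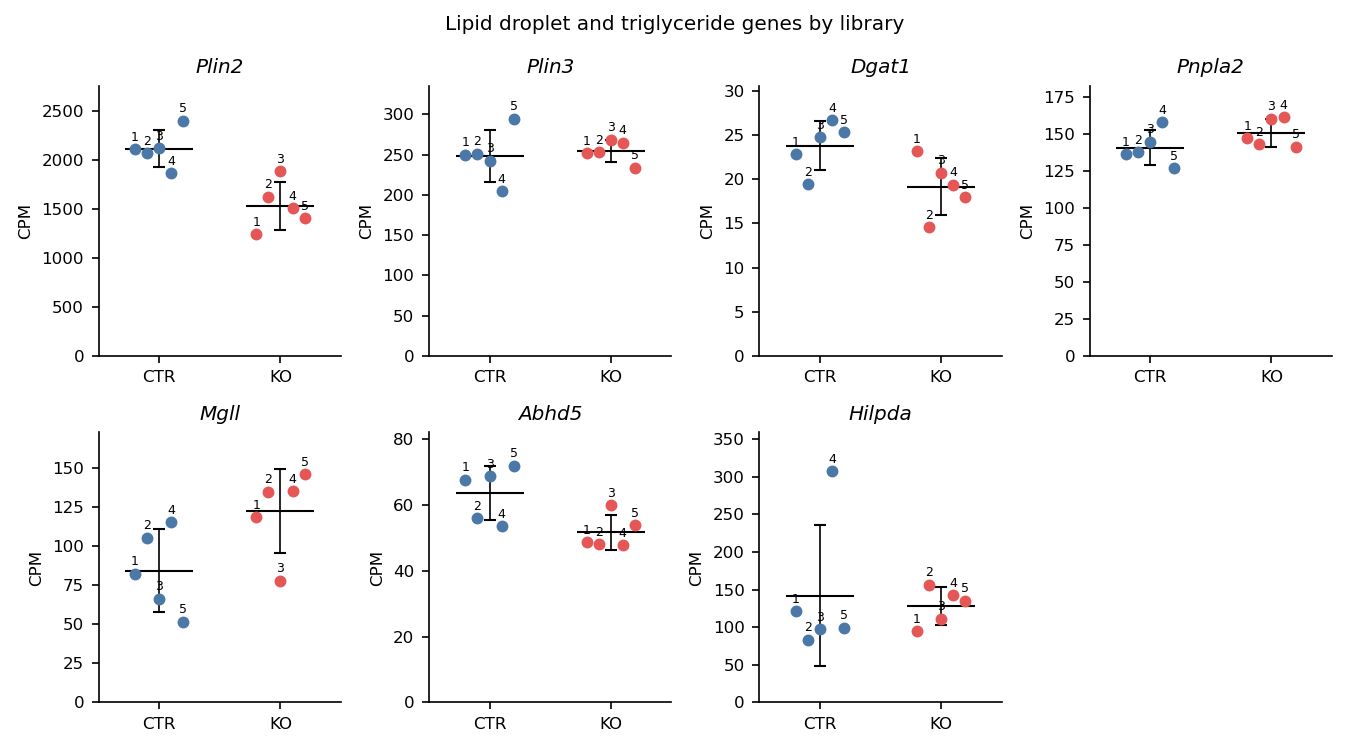
CPM of each of the 7 tested members by library, with CTR libraries in blue and KO libraries in red, replicate numbers beside the points, and the mean with its SD (n = 5) in black. In Plin2, 4 of the 5 KO libraries lie below all CTR libraries, and in Hilpda CTR 4 lies at 307 CPM, far above the other libraries.

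Plin2, the coat protein gene, was the member with the highest level. Its CPM were 2111, 2067, 2118, 1865 and 2399 in CTR 1 to 5, and 1238, 1624, 1883, 1504 and 1405 in KO 1 to 5. The ranges met at 1 point: KO 3 stood above CTR 4, the lowest CTR library, while the other 4 KO libraries lay below every CTR library. The means were 2112 ± 191 in CTR and 1531 ± 242 in KO (SD, n = 5 each), and the fitted level was 27.5% lower in KO. The log2 fold change was -0.46 (SE 0.11, 95% interval -0.71 to -0.22, adjusted p = 0.0430, edgeR quasi-likelihood test). This adjusted p is near the threshold, and the call was lost when any 1 of CTR 1, CTR 2, CTR 3, CTR 5, KO 1, KO 2, KO 4 or KO 5 was left out, with adjusted p between 0.0620 and 0.104 and log2 fold changes between -0.49 and -0.40. It was also lost with scaling by library size only (adjusted p = 0.0687) and with no filter on low counts (adjusted p = 0.0750), at log2 fold changes of -0.43 and -0.47.

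Plin3, which encodes a coat protein also found free in the cytosol, gave no such difference. Its CPM were 250, 251, 242, 205 and 295 in CTR 1 to 5 and 252, 253, 268, 265 and 234 in KO 1 to 5, and the KO range lay inside the CTR range. The log2 fold change was 0.03 (SE 0.10, 95% interval -0.17 to 0.24, adjusted p = 0.867 by the edgeR test). Without CTR 4, which had the lowest Plin3 level, it was -0.03.

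The relation of the 2 coat genes to each other separated the genotypes. The FPKM ratio of Plin2 to Plin3 within a library, which does not depend on how libraries are scaled, was 3.48, 3.39, 3.60, 3.76 and 3.36 in CTR 1 to 5 and 2.03, 2.64, 2.89, 2.34 and 2.48 in KO 1 to 5. Every KO library lay below every CTR library, CTR 4 and KO 3 included. The median ratio was 3.48 in CTR and 2.48 in KO, and the mean log2 ratios differed by -0.52, beside SDs of 0.07 in CTR and 0.19 in KO (n = 5 each). It is given as a description, with no test. The share of gene pairs whose ratio separates the genotypes was not computed, and the other ratios of members given below overlapped.

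Of the pair of diacylglycerol acyltransferases, which join the third fatty acid to make triglyceride, only Dgat1 was present at a level that could be tested. Dgat1 CPM were 22.9, 19.5, 24.8, 26.7 and 25.4 in CTR 1 to 5 and 23.2, 14.6, 20.8, 19.4 and 18.0 in KO 1 to 5. The ranges overlapped, with 3 of 5 KO libraries below the lowest CTR library and KO 1 and KO 3 inside the CTR range. The log2 fold change was -0.31 (SE 0.13, 95% interval -0.60 to -0.03), and it did not pass after adjustment (adjusted p = 0.191, edgeR quasi-likelihood test).

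Dgat2 had 3, 3, 5, 12 and 10 counts in CTR 1 to 5 and 10, 6, 9, 6 and 9 counts in KO 1 to 5. These counts lie close to the 3 counts that a reading of 0 allows in 1 library (0.154 to 0.203 CPM, counting error only), and a difference between the genotypes was not detectable at this depth. In a fit with no filter on low counts the log2 fold change of Dgat2 was 0.15 (SE 0.48, adjusted p = 0.898, edgeR). Per gene length, Dgat1 stood at 4.27 ± 0.446 FPKM and Dgat2 at a mean of 0.102 FPKM in CTR (n = 5). In KO they stood at 3.54 ± 0.589 and a mean of 0.117 FPKM (n = 5).

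Pnpla2, the gene of adipose triglyceride lipase, had CPM of 136, 138, 145, 158 and 127 in CTR 1 to 5 and of 147, 143, 160, 161 and 141 in KO 1 to 5. The means were 141 ± 11.6 and 151 ± 9.44 (SD, n = 5 each) and the ranges overlapped. The log2 fold change was 0.10 (SE 0.08, 95% interval -0.08 to 0.28, adjusted p = 0.518, edgeR).

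Mgll, the gene of monoacylglycerol lipase, which in other tissues also degrades the endocannabinoid 2-arachidonoylglycerol, had CPM of 82.5, 106, 66.5, 115 and 51.7 in CTR 1 to 5. In KO 1 to 5 they were 119, 135, 77.9, 135 and 146. Of the KO libraries 4 lay above the highest CTR library, and KO 3 lay below CTR 1. The means were 84.3 ± 26.5 and 123 ± 26.9 (SD, n = 5 each), and the log2 fold change was 0.54 (SE 0.22, 95% interval 0.06 to 1.02). It did not pass after adjustment (adjusted p = 0.175, edgeR quasi-likelihood test), and over the 20 other settings the log2 fold change ranged from 0.41 to 0.68 with adjusted p of at least 0.0592.

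Abhd5, whose product activates adipose triglyceride lipase on the droplet, had CPM of 67.6, 55.9, 68.6, 53.6 and 71.9 in CTR 1 to 5 and of 48.7, 48.1, 59.8, 47.7 and 53.8 in KO 1 to 5. Of the KO libraries 3 lay below the lowest CTR library, and KO 3 and KO 5 lay inside the CTR range. The log2 fold change was -0.30 (SE 0.11, 95% interval -0.53 to -0.06, adjusted p = 0.131, edgeR), which did not pass. With limma voom and sample quality weights it was -0.34 and passed (adjusted p = 0.0271).

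**Figure D2:**
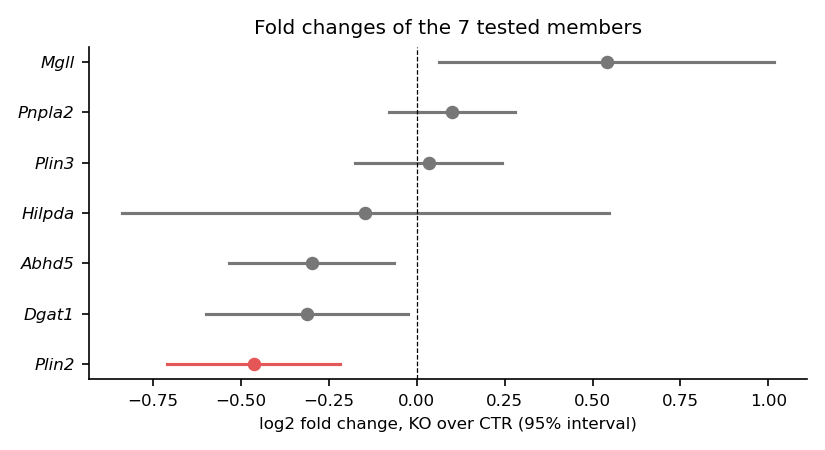
Log2 fold change of KO over CTR (horizontal axis) with its 95% interval for the 7 tested members, ordered by value, with red for an adjusted p under 0.05 and grey otherwise. Plin2 at -0.46 is the member in red, the intervals of Dgat1, Abhd5 and Mgll also lie to 1 side of 0, and that of Hilpda is the widest.

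G0s2, which encodes an inhibitor of adipose triglyceride lipase, was near absent. Its counts were 0, 0, 2, 2 and 0 in CTR 1 to 5 and 9, 2, 3, 3 and 4 in KO 1 to 5, or 4 counts against 21 in all. No CTR library reached 3 counts, 4 of 5 KO libraries reached it, and the count of 2 in KO 2 equalled the highest CTR count. With no filter on low counts, the edgeR test gave an adjusted p of 0.272 for G0s2 over 24365 genes, which did not pass, and no fold is given at these counts.

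Hilpda, the other inhibitor and a gene known to be induced by hypoxia, was much higher in 1 CTR library than in the rest. Its CPM were 121, 83.4, 97.7, 307 and 99.4 in CTR 1 to 5 and 94.6, 156, 111, 142 and 135 in KO 1 to 5. CTR 4 was at 3.06 times the mean of the other 4 CTR libraries, which stood at 100.4 ± 15.6 (SD, n = 4). With all libraries the log2 fold change was -0.15 (SE 0.32, 95% interval -0.84 to 0.55, adjusted p = 0.817, edgeR). Without CTR 4 it turned to 0.35 (SE 0.15, adjusted p = 0.183), so that neither direction passed the test.

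A list of 10 HIF target genes shared the high level of CTR 4. All 10 of the 10 had their highest CTR level in CTR 4, and 9 of 10 had their lowest CTR level in CTR 5, where Hilpda was not the lowest. How often these libraries stood at an end over all genes was not counted, so this is not shown to be particular to HIF targets. The geometric mean of the 10 was 56.6, 34.8, 44.0, 90.4 and 31.1 CPM in CTR 1 to 5 and 71.4, 91.5, 66.6, 85.8 and 63.4 CPM in KO 1 to 5. With all libraries, 0 of 10 passed in either direction in edgeR and the median log2 fold change was 0.54. By an unadjusted p under 0.05, 4 of these 10 were higher, beside 10.0% of all genes. Over all 13203 genes tested, edgeR called 241 higher, the DESeq2 Wald test 598 and voom with quality weights 1026. With the same libraries, 3 of the 10 HIF targets passed in the higher direction by the DESeq2 Wald test and 7 by voom, and 0 in the lower. Pdk1, a kinase that inhibits the mitochondrial oxidation of pyruvate, had the lowest p of them, at a fitted log2 difference of 0.72 (SE 0.20, adjusted p = 0.0601, edgeR), and passed by DESeq2 (adjusted p = 0.00864) and voom (adjusted p = 0.00586).

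**Figure D3:**
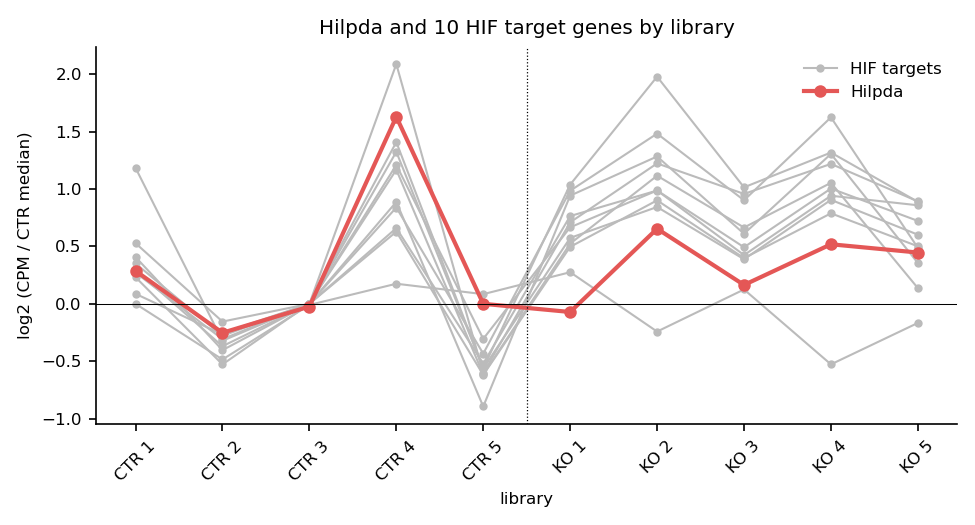
Log2 of the CPM of Hilpda (red) and of 10 HIF target genes (grey) in each library, relative to the gene's CTR median, with CTR on the left of the dotted line and KO on the right. CTR 4 is the highest CTR library for Hilpda and for all 10 targets, and CTR 5 is the lowest for 9 of the 10 but not for Hilpda.

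Without CTR 4, 7 of the 10 HIF targets passed in the higher direction, beside 3.62% of the 13378 genes tested in that fit, and their median log2 fold change was 0.91. They were Vegfa (0.76), Egln3 (1.18), Ankrd37 (1.14), Ero1a (0.74), Pdk1 (0.91), Ndrg1 (1.13) and Slc2a1 (0.90), with adjusted p between 0.00547 and 0.0283 by the edgeR test. Without both CTR 4 and CTR 5, 7 again passed and the median was 0.82. Hilpda, at 0.35 without CTR 4 and 0.35 without both, passed in neither fit. What set CTR 4 apart was not tested. Because CTR 4 held the highest CTR level of all 10 targets, leaving it out lowers their CTR mean by construction. The fits without it therefore give no independent evidence of a rise in KO.

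CTR 4 also stood at one end of CTR for the other members. It had the highest CTR level of Dgat1, Pnpla2, Mgll and Hilpda and the lowest of Plin2, Plin3 and Abhd5, which makes 7 of the 7 tested. How often each library stood at an end over all genes was not counted, so this is not shown to be particular to the members. Among the other CTR libraries, CTR 5 was at an end in 5 of the 7, with the highest Plin2, Plin3 and Abhd5 and the lowest Pnpla2 and Mgll. In KO, the library at an end most often was KO 3, in 4 of the 7, with the highest Plin2, Plin3 and Abhd5 and the lowest Mgll. Plin2, Plin3 and Abhd5 thus shared their highest library in each genotype.

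**Figure D4:**
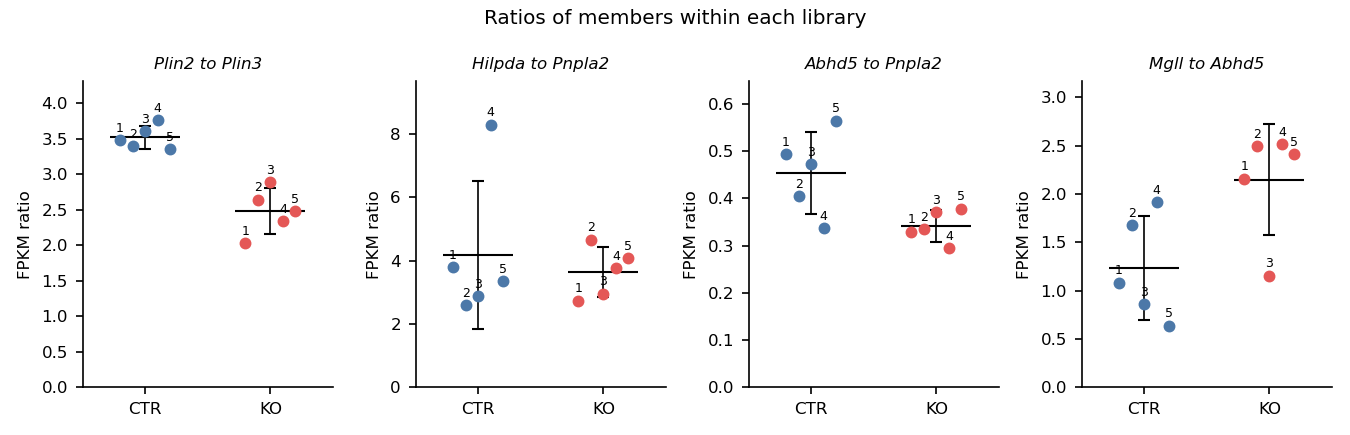
Ratio of the deposited FPKM of the named members within each library, with CTR in blue, KO in red, replicate numbers beside the points, and the mean with its SD (n = 5) in black. The Plin2 to Plin3 ratio is 3.36 to 3.76 in CTR and 2.03 to 2.89 in KO with no overlap, while the other ratios overlap.

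Ratios among the lipase genes and their regulators overlapped between genotypes. Abhd5 to Pnpla2, co-activator to lipase, was 0.493, 0.404, 0.471, 0.337 and 0.564 in CTR 1 to 5 and 0.329, 0.334, 0.371, 0.295 and 0.378 in KO 1 to 5, a mean log2 difference of -0.40. The overlap came from CTR 4, the lowest CTR library, which lay inside the KO range, while the other 4 CTR libraries lay above every KO library. Hilpda to Pnpla2, inhibitor to lipase, ran from 2.58 to 8.29 in CTR, with CTR 4 at the top, and from 2.74 to 4.66 in KO. Mgll to Abhd5, a ratio chosen after the values were seen, was 1.08, 1.67, 0.860, 1.91 and 0.639 in CTR 1 to 5 and 2.16, 2.49, 1.16, 2.52 and 2.41 in KO 1 to 5, a mean log2 difference of 0.86. In this ratio KO 3 lay among the CTR libraries and the other 4 KO libraries lay above them.

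Per gene length, the order of the members was the same in both genotypes for the 7 tested ones. The lengths are those behind the deposited FPKM, 1 per gene, from 1640 bases for Hilpda to 7919 for Mgll. The order of the genes depends on them. In the deposited FPKM, CTR levels were 399 ± 51.8 for Plin2, 114 ± 19.1 for Plin3, 83.3 ± 49.1 for Hilpda, 19.8 ± 0.869 for Pnpla2, 10.4 ± 2.96 for Mgll, 8.95 ± 1.44 for Abhd5 and 4.27 ± 0.446 for Dgat1 (SD, n = 5). The KO levels in the same order were 296 ± 47.5, 119 ± 6.45, 79.0 ± 15.3, 21.8 ± 1.35, 15.7 ± 3.41, 7.44 ± 0.766 and 3.54 ± 0.589 (SD, n = 5). Dgat2 and G0s2 followed far below, at means of 0.102 and 0.0541 FPKM in CTR and 0.117 and 0.278 in KO. Of the inhibitor genes, Hilpda was thus the one with an appreciable level, and its FPKM stood above those of Pnpla2 in all 10 libraries. This rests on the gene lengths, 1640 bases for Hilpda and 6988 for Pnpla2. In CPM, the medians of Hilpda and Pnpla2 were 99.4 and 138 in CTR, and 135 and 147 in KO.

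Neighbours in this order were not all apart. In CTR, Plin3 lay above Hilpda in 4 of 5 libraries and Mgll above Abhd5 in 3 of 5, and both pairs overlapped in range. In KO, each of the 7 tested members lay above the next in 5 of 5 libraries with no overlap, so that Mgll and Abhd5, which crossed in CTR, were apart in KO.

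**Figure D5:**
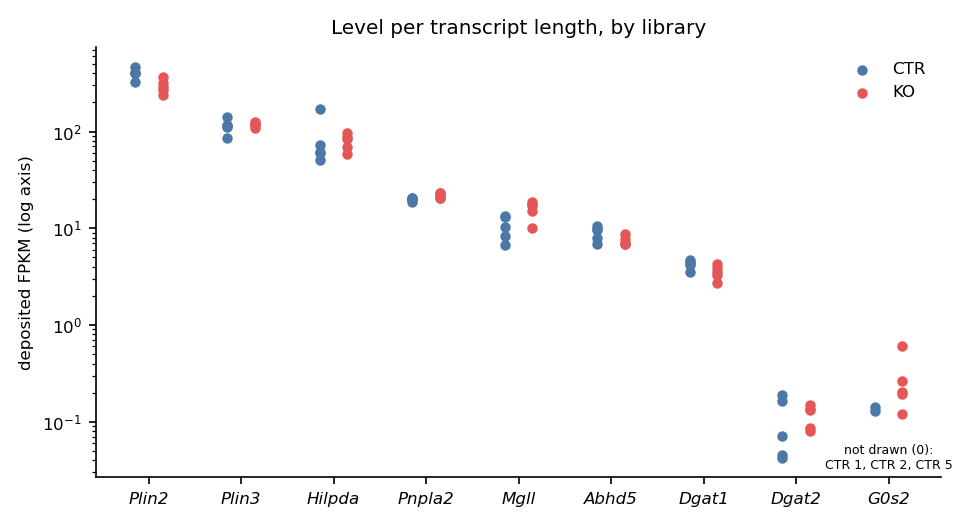
Deposited FPKM of the 9 members in each library on a log axis, with CTR in blue and KO in red, ordered by the mean in CTR. Levels run from Plin2 at 239 to 469 FPKM to Dgat2 and G0s2 below 1 FPKM, and the values of 0 for G0s2 in CTR 1, CTR 2 and CTR 5 are not drawn.

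The enzymes that lead up to the acyltransferases gave 1 gene that rose. Of 18 glycerolipid synthesis genes, 15 were tested, 1 was higher and 0 lower, beside 1.83% and 2.11% of all genes. At an unadjusted p under 0.05, 1 was higher and 1 lower, beside 10.0% and 11.9% of all genes. The median log2 fold change was 0.08 beside -0.01 over all genes. The gene that passed was Lpin1, a phosphatidate phosphatase that makes the diacylglycerol used by DGAT1. Its CPM were 30.4, 31.5, 29.5, 15.9 and 25.9 in CTR 1 to 5 and 49.4, 70.4, 57.7, 51.4 and 59.0 in KO 1 to 5, with no overlap. The Lpin1 log2 fold change was 1.11 (SE 0.17, adjusted p = 0.00888, edgeR quasi-likelihood test), and it passed in all 20 other settings, at 0.92 to 1.18.

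Among 12 other lipase genes, 9 were tested, 2 were higher and 0 lower, beside 1.83% and 2.11% of all genes, with a median of 0.09. At an unadjusted p under 0.05, 3 of the 9 were higher and 0 lower, beside 10.0% and 11.9% of all genes. Daglb, which encodes a diacylglycerol lipase and so makes the monoacylglycerol that Mgll degrades, had CPM of 247, 220, 232, 252 and 209 in CTR 1 to 5 and of 388, 377, 337, 359 and 337 in KO 1 to 5. Its genotypes did not overlap, and its log2 fold change was 0.63 (SE 0.08, adjusted p = 0.00382, edgeR), past the threshold in all 20 other settings. Lpl, the lipoprotein lipase that frees fatty acids from triglyceride outside the cell, rose from 2006 ± 598 to 3229 ± 239 CPM (SD, n = 5 each). Its log2 fold change was 0.69 (SE 0.17, adjusted p = 0.0430, edgeR). The genotypes did not overlap, but only narrowly, with CTR 4 at 2977 CPM and KO 1 at 2991. The Lpl call was lost without any 1 of CTR 1, CTR 2, CTR 3, CTR 5 or KO 1 to KO 5 (adjusted p from 0.0570 to 0.108, edgeR). That call was also lost with no filter on low counts (adjusted p = 0.0750, edgeR) and with the replicate number as a block (adjusted p = 0.0710, edgeR). With a trend on gene length it was lost as well (adjusted p = 0.0849, edgeR). Without CTR 4 the log2 fold change was 0.87 (adjusted p = 0.00314, edgeR). Because CTR 4 held the highest CTR level of Lpl, leaving it out lowers the CTR mean by construction. That fit gives no independent evidence of a rise in KO.

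Of 19 other droplet coat and biogenesis genes, 1 (Ldaf1) was not matched to an identifier, 11 were tested and 0 passed in either direction. At an unadjusted p under 0.05, 1 was higher and 2 lower, beside 10.0% and 11.9% of all genes, and the median of the 11 was 0.03. The perilipin genes Plin1, Plin4 and Plin5 were not tested: Plin5 was at 0 in every library, and Plin1 and Plin4 reached at most 0.0584 CPM. Spart, which encodes spartin, a droplet-binding protein, had the lowest p, with 58.0 ± 8.40 CPM in CTR and 73.5 ± 5.98 in KO (SD, n = 5 each). Its log2 fold change was 0.34, with an SE of 0.11 and an adjusted p of 0.0909 by edgeR. It was the 1 gene of the list that passed by DESeq2 (adjusted p = 0.0353) and by voom (adjusted p = 0.0383). It also passed without CTR 1 (adjusted p = 0.0428, edgeR), which held its highest CTR level.

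Of 15 nuclear receptors and factors, 14 were tested and 0 passed in edgeR or by DESeq2, while voom called 2 higher and 1 lower. Over all 13203 genes tested, voom called 1026 higher and 893 lower, and DESeq2 598 and 691. In edgeR, 2 of the 14 were higher and 1 lower at an unadjusted p under 0.05, beside 10.0% and 11.9% of all genes. The median of the 14 was 0.15. Foxo1, a factor known for the control of Pnpla2 in adipocytes, had the lowest p, with 16.1 ± 3.26 CPM in CTR and 21.1 ± 3.14 in KO, and its log2 fold change was 0.39, with an SE of 0.15 (adjusted p = 0.166, edgeR). PPAR target genes, among which Plin2 is also known, were tested in 9 of 10 and 0 passed in edgeR, while DESeq2 called 1 higher and 2 lower and voom 0 higher and 1 lower. At an unadjusted p under 0.05 there were 1 higher and 2 lower, beside 10.0% and 11.9% of all genes. In 8 of the 9 PPAR targets the log2 fold change was below 0, beside 6713 of the 13203 genes tested, and the median of the 9 was -0.11. Fabp4, a fatty acid carrier, had the lowest p of them, with 819 ± 71.2 CPM in CTR and 675 ± 55.3 in KO, and its log2 fold change was -0.28, with an SE of 0.09 (adjusted p = 0.0918, edgeR), and it passed by DESeq2 (adjusted p = 0.0395).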

How the data were processed

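Bulk RNA sequencing covered 10 libraries, 5 per genotype. The authors deposited whole-number raw counts for each Ensembl gene. They also deposited FPKM, normalised for length and library total (the deposited FPKM equalled the counts divided by both within a relative deviation of 4.19e-05 for genes with at least 5 counts). Per the submitters' processing notes, GRCm39, edgeR, HISAT2, SAMtools 1.3.1 and CASAVA 1.8 were used, with no role or order stated. The sources used here do not name the read counter, the annotation release or the strand setting, so reads of a gene and an overlapping one on the other strand cannot be told apart. Gm12551, which overlaps Plin2, and Gm26588, which overlaps Mgll, had mean counts of 0.9 and 4.1. FPKM also gave the gene lengths.

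Columns were assigned by genotype and number. Of 53465 genes, 53274 were matched to a symbol, and the 191 others held 0.0403% of the counts. In R 4.3.3, edgeR 4.0.16 kept 13203 genes by filterByExpr (99.9% of counts) and scaled libraries by TMM. The quasi-likelihood test was two-sided with genotype as its only term, adjusted by Benjamini and Hochberg over all genes, with a threshold of 0.05. Each SE is the size of the log2 fold change divided by √F. The biological coefficient of variation was 0.200, and 520 genes passed. Floors of 3 counts cover counting error only, since no molecular identifiers are stated.

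The members and the gene lists were chosen with earlier results of these data known. Named genes are the members, Gnas, and of each list up to 3 genes with the lowest p among those that passed, or the 1 with the lowest p where none did. Genes named outside this rule (the 7 HIF targets without CTR 4, the cell type markers, and genes at 0 counts) were chosen after their values were seen. Ratios of Dgat1 to Dgat2 and of G0s2 to Pnpla2 are not given because their counts lie near the floor. Promoter sequences are from RefSeq on GRCm38.p6, another build than GRCm39. Other settings were DESeq2 1.42.0 size factors, library size only, no filter, a CPM of at least 1 in 5 libraries, the DESeq2 Wald test, voom with quality weights (limma 3.58.1), a robust fit, the replicate number as a block, a trend on transcript length (mgcv 1.9.3), a fit without CTR 4 and CTR 5, and each library left out in turn.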

Additional observations from a re-analysis of the deposited data

Results flagged for a closer look

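In 15 genes the CPM of each genotype were searched for 1 library far from the other 4, by Dixon's ratio of the gap to the range (critical value 0.71 for 5 libraries), and chance alone gives such a library in about 1 of 20 groups. Of the 30 groups, 2 held one. Hilpda stood at 307 CPM in CTR 4, where the other CTR libraries lay between 83.4 and 121, with a ratio of 0.831. Spart stood at 63.1 CPM in KO 5, where the other KO libraries lay between 73.9 and 77.9, with a ratio of 0.727. The cause was not tested in either.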

How the results depend on the processing

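Over all genes, 241 were higher and 279 lower in KO. The counts were 312 and 213 with library size only, 122 and 139 with no filter, 598 and 691 by DESeq2, 1026 and 893 by voom, 694 and 491 without CTR 4 and CTR 5, and 32 to 484 and 30 to 384 with 1 library left out. The count of members that were lower, 1 in edgeR, was 0 with library size only and with no filter, 2 by voom, and 0 to 1 with 1 library left out. No member passed in the higher direction in edgeR (1 at an unadjusted p under 0.05) or in any of the 20 other settings, DESeq2 and voom included. Plin2 stayed below 0 in all 20, between -0.55 and -0.40, and passed in 9. Hilpda turned to 0.22 by voom and 0.35 without CTR 4 and CTR 5, and ran from -0.29 to 0.35 with 1 library left out. Plin3 ran from -0.028 to 0.10 there. With the replicate block, 59 genes were higher and 45 lower, 0 members passed, Plin2 was at -0.47 (adjusted p = 0.0863, edgeR) and Hilpda at 0.018, and Lpl at 0.73 did not pass (adjusted p = 0.0710, edgeR). Libraries with the same number did not deviate together (residual correlations of -0.126 to 0.0582, and 0 of 5 best with their own number). Whether the numbers pair the libraries is not stated in the sources used here, and such correlations cannot settle it. The cause of these changes was not tested. Among the members, Dgat2 and G0s2 were too low to be tested.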
